A study of Mus musculus with 10 samples.

Results

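The complement system was examined gene by gene in the livers of mice fed WD SW or CD. The list held 34 mouse genes: the proteins of the classical, lectin, alternative and terminal arms, the soluble and membrane-bound regulators, and the receptors for the anaphylatoxins. The genes were taken by name from the probe annotation of the arrays, and 31 of the 34 had a probe, out of 19057 genes with a named probe on the array. No probe was named for *C3*, *Cfd* or *Clu*, which were not analysed here. The 31 genes had 52 probes, of which 42 probes of 28 genes were bright enough to be tested.

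All mice were of the B6/129 strain, an inbred isogenic line from a cross of C57BL/6J and 129S1/SvImJ, and no engineered allele is named in the sources used here. The mice were male and 8 to 12 weeks old at the start. The WD SW group (5 livers) ate a high fat Western diet and drank water with fructose and glucose for 8 weeks, and the CD group (5 livers) ate standard chow and drank plain water for the same time. Since the strain is isogenic, the spread between arrays holds little genetic variation, and a single strain and time point were measured on the arrays. The labels name separate samples and the study's text speaks of them as mice, so the p-values measure variation from mouse to mouse within a diet together with technical error. A number in the sample titles was shared by some arrays of the same diet and by none across diets. Its meaning is not given, so whether arrays with the same number are independent is not known.

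Complement is a cascade of plasma proteins, most of them made by hepatocytes. It is started by C1q bound to antibody (classical arm), by lectins and ficolins bound to sugars (lectin arm), or by slow spontaneous turnover of C3 (alternative arm). Each arm builds a protease that cleaves C3 and then C5, and C5b gathers C6, C7, C8 and C9 into the membrane attack complex, which pierces membranes. C1q is an exception to hepatocyte synthesis, being made largely by macrophages, in the liver mainly Kupffer cells.

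Values are normalized log2 signals, and differences are WD SW minus CD. A step of 1 is a 2-fold change of the background-corrected signal with an offset of 16 added, which makes the folds of dim genes smaller. A gene was called higher or lower where limma's p, adjusted by the Benjamini-Hochberg method over all 17368 tested probes, was under 0.05. Each gene was represented by its brightest probe, and its other probes are given beside it where they differed. The arrays differed in brightness: the 95th percentile of the unnormalized signal was 870 to 1023 on the WD SW arrays and 403 to 921 on the CD arrays, where replicate 1 had 921 and the remaining CD arrays reached at most 548. Brightness and diet were therefore largely confounded, and the values of all called genes with brightness as a covariate are given after the account by arm.

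Of the 28 tested complement genes, 14 were lower and 6 were higher in WD SW livers, and 8 were not called. Over all 10187 genes tested, 15.4% were called lower, 14.5% higher and 29.9% in either direction. The median difference was -0.44 over the complement genes and -0.05 over all genes. The 5 WD SW arrays lay entirely below the 5 CD arrays in 10 complement genes and entirely above them in 4, while 19.6% of all genes were separated in either direction, 10.3% lower and 9.36% higher. Some genes passed the brightness filter through 1 diet only and so had to differ. In the 24 genes above background on all 10 arrays, refitted among genes of that kind, 13 were lower and 4 were higher. Of all 7108 such genes 35.5% were called in either direction, 1544 lower and 982 higher, with a median difference of -0.12. In whole liver RNA, fewer cells of a type and less RNA per cell cannot be told apart.

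By arm, the terminal arm had 5 of 6 tested genes lower (median -1.25), the lectin arm 3 of 5 lower and 1 higher (median -0.54), and the classical arm 2 of 7 lower and 3 higher (median 0.34). Of the alternative arm only *Cfb* and *Cfp* were tested, and 1 was lower. Among the fluid-phase regulators 2 of 4 were lower (median -0.47), and among the membrane regulators 2 of 3 were higher (median 0.61). Both of the latter were below background on most CD arrays and so entered the test through WD SW. Neither was called with median scaling over probes detected on all 10 arrays, where *Cr1l* was at -0.06 and *Cd55* at 0.20. With median scaling over all probes both were called higher, *Cr1l* at 0.74 (limma adjusted p = 0.00279) and *Cd55* at 0.99 (adjusted p = 0.000769). In that setting 4894 of all 10187 genes were called higher. Called genes thus lay in both directions, with the decreases of over 1 log2 unit in the terminal arm and in *C2* and the increases of over 1 in *C1qb* and *C1qc*.

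**Figure D1:**
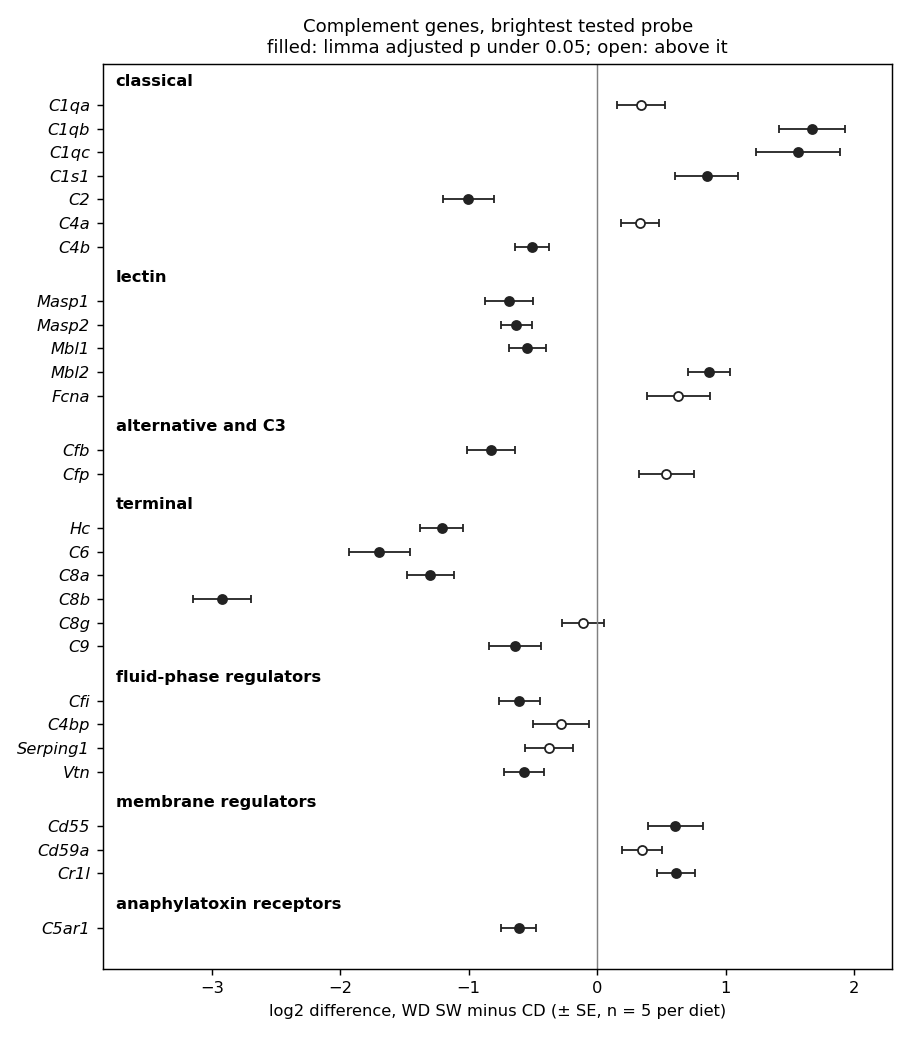
Difference in normalized log2 signal, WD SW minus CD, for the 28 tested complement genes grouped by arm (points; bars are ± SE, n = 5 arrays per diet; filled points have a limma adjusted p under 0.05). The terminal arm lies furthest to the left, with C8b at -2.92, and C1qb and C1qc lie furthest to the right, at 1.67 and 1.56.

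The terminal arm showed the lowest values. *C8b*, which encodes the beta chain of C8, had log2 signals of 8.48, 8.61, 9.91, 9.06 and 8.80 on the 5 WD SW arrays, against 11.69, 11.81, 11.94, 12.21 and 11.80 on the 5 CD arrays. Even the highest WD SW array lay far below the lowest CD array. *C8b* was thereby 7.56-fold lower in WD SW livers (log2 difference -2.92 ± 0.23 SE, limma adjusted p = 1.42e-06), and this was the largest change among the complement genes. *C8a*, the alpha chain gene and the neighbour of *C8b* on chromosome 4 with 0 protein coding genes between them, read 10.08, 10.002, 10.80, 10.15 and 10.07 in WD SW livers, against 11.31, 11.19, 11.95, 11.62 and 11.52 in CD livers. WD SW replicate 3 stood above the other WD SW arrays, and the diets did not overlap (-1.30 ± 0.18, adjusted p = 0.000147, limma). *C8g*, the gamma chain gene, lies on chromosome 2, and its signals overlapped fully, at 12.79 to 13.33 in WD SW livers and 12.73 to 13.47 in CD livers. Its difference of -0.11 ± 0.17 was not called (limma adjusted p = 0.649). Its size and sign depended on the setting. It was -0.56 and called lower under median scaling over probes detected on all 10 arrays (limma adjusted p = 0.0217). With median scaling over all probes it was 0.24 and not called. It was also not called at -0.54 with brightness as a covariate, and it was -0.49 against CD replicate 1 alone. Whether *C8g* differed from the other chain genes in its response was not tested.

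*C6*, whose product binds C5b as the first step of pore assembly, had signals of 9.39, 9.95, 10.86, 10.72 and 10.45 in WD SW livers, against 11.79, 12.16, 12.25, 11.93 and 11.73 in CD livers. The WD SW arrays were also the more scattered here, with an SD of 0.60 against 0.23 in CD livers. *C6* was 3.24-fold lower (-1.70 ± 0.24, limma adjusted p = 0.000155), and its second, dimmer probe was lower too (-1.23 ± 0.28, adjusted p = 0.00463). *Hc*, the mouse gene of C5, read 10.51, 10.48, 10.83, 10.65 and 10.23 in WD SW livers, against 11.28, 11.62, 11.995, 12.06 and 11.78 in CD livers. The lowest CD array was replicate 1, the bright one, and it still lay above every WD SW array (-1.21 ± 0.17, limma adjusted p = 0.000135).

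*C9*, whose copies form the wall of the pore, had 3 tested probes that differed in size. Its brightest probe read 11.44 to 12.22 in WD SW livers and 11.83 to 12.89 in CD livers, and these ranges overlapped (-0.64 ± 0.20, limma adjusted p = 0.0277). That call was lost in 11 of 26 alternative settings, among them the omission of WD SW replicate 1, 2 or 5 or of CD replicate 1, 3 or 4. The second probe read 10.19, 10.26, 10.82, 10.42 and 10.45 in WD SW livers, against 11.59, 11.52, 11.97, 12.09 and 12.01 in CD livers, with no overlap (-1.41 ± 0.16, adjusted p = 3.13e-05). The dimmest probe was not called (-0.26 ± 0.23, adjusted p = 0.406). *C7*, which extends the complex after C6, was not above background on any of the 10 arrays: the unnormalized signals of its 3 probes were 77.2 to 91.0 in WD SW livers and 77.4 to 92.9 in CD livers, against background levels of 78.0 to 88.1. Within the WD SW group, replicate 3 had the highest signal in all 5 terminal genes called lower, and it was the highest WD SW array in 13 of the 28 tested genes.

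**Figure D2:**
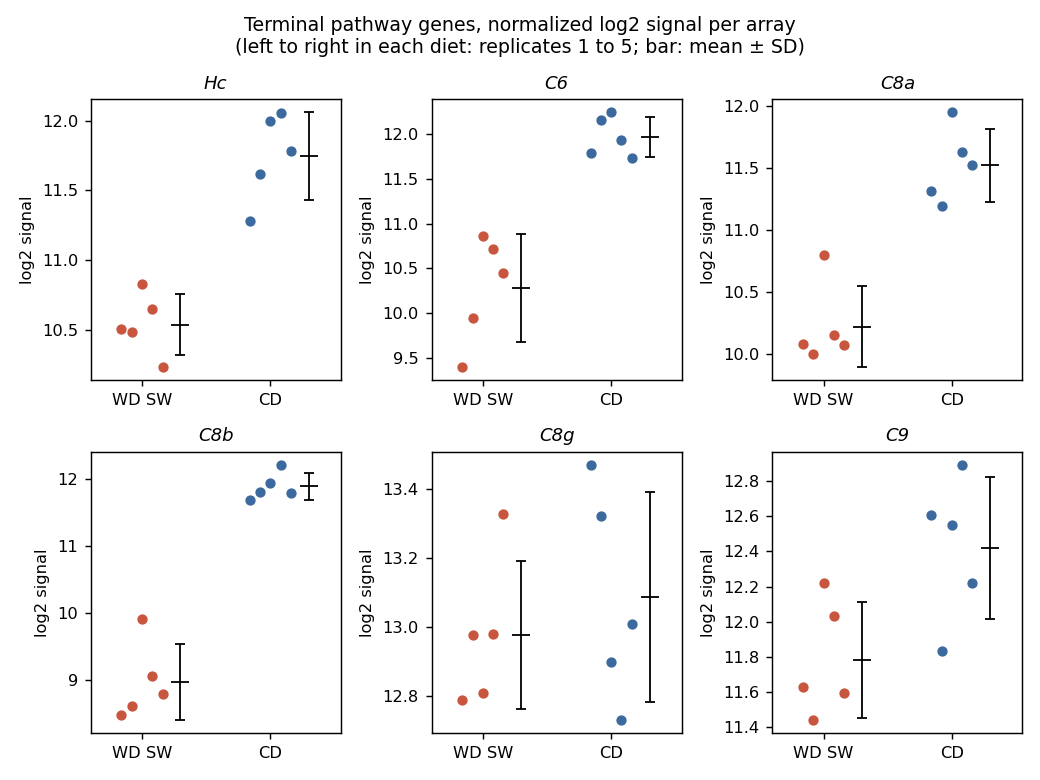
Normalized log2 signal of the 6 tested terminal arm genes on each array (points from left to right are replicates 1 to 5; bars are mean ± SD, n = 5 per diet; each panel has its own axis). The diets are separate in Hc, C6, C8a and C8b, overlap in C9 (brightest probe) and overlap in C8g, and WD SW replicate 3 is the highest WD SW array except in C8g.

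To show the upstream sequence of the genes with the largest changes, the 250 bases before the start site are given for the terminal genes *C8b* (chr4:104766067-104766316, plus strand) and *C6* (chr15:4726960-4727209, plus strand) and for the initiating genes *C1qb* (chr4:136886201-136886450, minus strand) and *C1qc* (chr4:136892915-136893164, minus strand). The sequences are those of RefSeq on GRCm38.p6, written 5′ to 3′ on the strand of the gene, and capitals mark matches to the NF-kB letters, GGG and CC with any 5 bases between them. *C1qb* and *C1qc* are neighbours on chromosome 4 with 0 protein coding genes between them, and both rose.
C8b promoter: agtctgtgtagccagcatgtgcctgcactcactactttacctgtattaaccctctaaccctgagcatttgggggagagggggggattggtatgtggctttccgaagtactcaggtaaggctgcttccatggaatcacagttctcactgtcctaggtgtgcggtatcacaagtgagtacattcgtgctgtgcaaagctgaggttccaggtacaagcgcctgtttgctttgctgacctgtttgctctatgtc
C6 promoter: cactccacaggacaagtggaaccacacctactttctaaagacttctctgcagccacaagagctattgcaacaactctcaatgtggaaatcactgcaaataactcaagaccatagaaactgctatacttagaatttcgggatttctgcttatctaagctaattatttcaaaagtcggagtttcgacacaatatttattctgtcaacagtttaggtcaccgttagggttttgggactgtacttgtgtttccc
C1qb promoter: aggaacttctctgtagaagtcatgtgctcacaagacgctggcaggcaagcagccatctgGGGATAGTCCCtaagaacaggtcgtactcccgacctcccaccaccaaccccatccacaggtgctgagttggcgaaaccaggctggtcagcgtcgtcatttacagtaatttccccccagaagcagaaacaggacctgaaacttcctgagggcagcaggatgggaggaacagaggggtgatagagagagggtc
C1qc promoter: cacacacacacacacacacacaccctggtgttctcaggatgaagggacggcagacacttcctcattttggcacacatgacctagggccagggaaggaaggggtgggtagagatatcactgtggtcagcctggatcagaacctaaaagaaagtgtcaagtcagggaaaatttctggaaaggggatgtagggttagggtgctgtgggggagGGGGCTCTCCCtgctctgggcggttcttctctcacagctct

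Short motifs of 4 kinds were searched on both strands in windows of 300 bases, 250 before and 50 after the start: TTCNNNGAA (STAT), TTGCNNAA (C/EBP), GAAA followed after any 2 bases by GAAA (ISRE), and GGG followed after any 5 bases by CC (NF-kB). These motifs can overlap one another. Among the 4 genes printed, only the NF-kB letters were found, in *C1qb* with the first base at -191 and in *C1qc* at -41 from the start. Those letters occur in 50.8% of all 32851 such windows, and in 12 of the 27 windows of the 25 complement genes that the promoter table holds. The STAT letters were in 5 of the 27 windows (*C1ra*, *C7*, *C8a*, *Masp2* and *Vtn*) and 8.3% of all windows, and the C/EBP letters in 4 (*C1ra*, *C1s1*, *C3* and *C9*) and 10.8%. The ISRE letters were in 2 (*Cd59a* and *Vtn*) and 3.44%. These matches are a description of the letters and were not tested against the differences between diets.

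In the classical arm, 2 of the 3 genes for the recognition molecule C1q were higher. *C2* and the brightest probe of *C4b*, which supply the C3 convertase, were lower. A second, bright probe of *C4a* and a dim probe of *C4b* were higher. *C1qb*, 1 of the 3 chains of C1q, had signals of 8.19, 7.41, 8.64, 8.87 and 8.18 in WD SW livers, against 6.65, 6.72, 6.83, 6.89 and 5.84 in CD livers. Every WD SW array was above every CD array, and CD replicate 5 was the lowest of all. The difference was 3.19-fold (1.67 ± 0.26 log2, limma adjusted p = 0.000289). *C1qc*, a second chain, read 7.13, 6.77, 7.88, 8.82 and 7.35 in WD SW livers, against 6.02, 6.06, 6.11, 6.65 and 5.31 in CD livers. Here too the diets did not overlap (1.56 ± 0.33, limma adjusted p = 0.00244), and WD SW replicate 4 was the highest and replicate 2 the lowest of their group in both genes. *C1qa*, the remaining chain and the other neighbour of *C1qc*, was dim, with 5.10 to 6.10 in WD SW livers and 5.06 to 5.56 in CD livers. It was not called (0.34 ± 0.19, limma adjusted p = 0.184), and under median scaling its difference was -0.08.

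Since C1q is a macrophage product, the marker lists of macrophages are given beside these values. Of 10 tested macrophage and monocyte markers 5 were higher and 0 lower, where 14.5% of all genes were higher and 15.4% lower. Only 5 of the 10 markers were above background on all 10 arrays. Of the 5 called, only *Csf1r*, the receptor for macrophage growth factor, was detected throughout (0.90 ± 0.20). *Cx3cr1* and *Fcgr1* were above background on 5 WD SW arrays and 0 CD arrays, so they had to come out higher, and *Gpnmb* and *Tyrobp* were above it on 5 WD SW arrays but on only 2 and 3 CD arrays. The log2 of the summed signal of this list was 11.50 to 12.88 on WD SW arrays and 10.998 to 12.33 on CD arrays, so the ranges overlapped. Of 7 tested Kupffer cell markers 2 were higher and 1 was lower, with summed levels of 13.01 to 13.25 in WD SW livers and 12.19 to 12.94 in CD livers. That sum is mostly the signal of *Slc40a1*, the iron exporter, which was higher (0.70 ± 0.21). *Folr2*, the other marker called higher, was higher on both tested probes (0.74 ± 0.21 and 1.16 ± 0.20), which were above background on 4 and 3 CD arrays. *Adgre1* (0.50 ± 0.23) and *Vsig4* (0.61 ± 0.28) were not called, and the median over the list was 0.50. *Cd163*, the scavenger receptor for haptoglobin-bound haemoglobin, was lower (-2.02 ± 0.29, limma adjusted p = 0.000164). The defining Kupffer cell genes *Clec4f* (-0.08 ± 0.17) and *Timd4* (-0.19 ± 0.14) were not called, and *Cd5l* and *Marco* were not bright enough to be tested. The part of macrophage content in the *C1qb* and *C1qc* values was not tested.

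The classical proteases moved in different directions. *C1s1*, the gene of the C1s protease that cleaves C4 and C2, read 7.18, 6.39, 7.26, 7.37 and 6.20 in WD SW livers, against 6.04, 6.52, 6.26, 5.69 and 5.65 in CD livers. WD SW replicates 2 and 5 fell within the CD range, so the diets overlapped (0.85 ± 0.24, limma adjusted p = 0.0156), and a second probe gave 0.97 ± 0.23. *C1ra*, the neighbouring gene of its activating protease C1r, was not above background on any array, with unnormalized signals of 77.5 to 88.9 in WD SW livers and 80.8 to 92.3 in CD livers over 2 probes. *C2*, which supplies the protease of the classical and lectin C3 convertase, had signals of 10.03, 10.28, 10.92, 10.28 and 9.89 in WD SW livers, against 11.004, 10.98, 11.52, 11.25 and 11.65 in CD livers. WD SW replicate 3 lay just below the lowest CD array, and *C2* was 2.003-fold lower (-1.002 ± 0.20, limma adjusted p = 0.00166).

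C4 supplies the other part of that convertase and is encoded by near-identical paralogs, so signal from one gene may reach the probes of the other. *C4b* had signals of 11.78, 11.67, 11.79, 11.73 and 11.59 on its brightest probe in WD SW livers, against 11.97, 12.09, 12.53, 12.29 and 12.19 in CD livers. The WD SW values were tightly grouped (SD 0.08) and all below CD (-0.50 ± 0.13, limma adjusted p = 0.0102). A second, dim *C4b* probe went the other way, at 5.33, 5.20, 5.34, 5.58 and 5.14 in WD SW livers, against 4.77, 5.07, 4.81, 4.68 and 5.03 in CD livers. It was above background on all 5 WD SW arrays and on 0 CD arrays, so that only a bound of at least 1.12-fold higher can be given (limma adjusted p = 0.0209), and having passed the filter through WD SW it had to differ. With the tested probes of *C4b* averaged, the difference was -0.03 and not called. *C4a*, the paralog known as Slp, was at 12.35 to 12.69 in WD SW livers and 11.90 to 12.52 in CD livers on its brightest probe (0.33 ± 0.15, adjusted p = 0.0998, not called). Its second probe, also bright with means of 12.13 in WD SW livers and 11.38 in CD livers, was called higher (0.75 ± 0.22, limma adjusted p = 0.0206).

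The lectin arm held 2 mannose-binding lectins with opposite changes. *Mbl2* (MBL-C) had signals of 10.83, 10.58, 10.72, 11.12 and 10.65 in WD SW livers, against 10.30, 9.96, 9.73, 9.50 and 10.07 in CD livers. All WD SW arrays were higher (0.87 ± 0.17, limma adjusted p = 0.00127). *Mbl1* (MBL-A) had signals of 11.62, 11.80, 11.26, 11.59 and 11.58 in WD SW livers, against 11.98, 12.03, 12.30, 12.36 and 11.91 in CD livers. All WD SW arrays were lower (-0.54 ± 0.14, limma adjusted p = 0.0104). *Fcna*, the gene of ficolin A, which binds acetylated sugars, was at 8.50 to 9.15 in WD SW livers and 7.12 to 8.68 in CD livers and was not called (0.63 ± 0.25, adjusted p = 0.0624).

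The genes of the lectin-associated proteases gave values that depended on the probe. *Masp1*, whose product starts the lectin cascade, read 10.78, 10.28, 10.64, 9.77 and 10.25 in WD SW livers, against 10.76, 11.17, 11.18, 10.81 and 11.22 in CD livers on its brightest probe. WD SW replicate 1 was as high as CD replicate 1, and the rest were lower (-0.69 ± 0.19, limma adjusted p = 0.0118), while its other 2 tested probes were not called (-0.20 ± 0.13 and -0.25 ± 0.21). *Masp2*, the gene of the protease that cleaves C4 and C2 in this arm, read 11.31, 11.42, 11.31, 11.40 and 11.46 in WD SW livers, against 11.96, 11.85, 12.05, 12.22 and 11.98 in CD livers. These 2 sets were far apart for their spread (-0.63 ± 0.12, limma adjusted p = 0.00137). A pair of other *Masp2* probes were not called (0.10 ± 0.14 and -0.05 ± 0.16). The fourth and dimmest was higher, at 6.14, 5.34, 5.60, 5.70 and 5.44 in WD SW livers, against 4.92, 4.89, 4.68, 5.33 and 4.80 in CD livers (0.72 ± 0.17, limma adjusted p = 0.00541). It was above background on all 5 WD SW arrays and 1 CD array, so it too entered the test through WD SW. With the probes of *Masp2* averaged, the difference was 0.04 and not called.

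**Figure D3:**
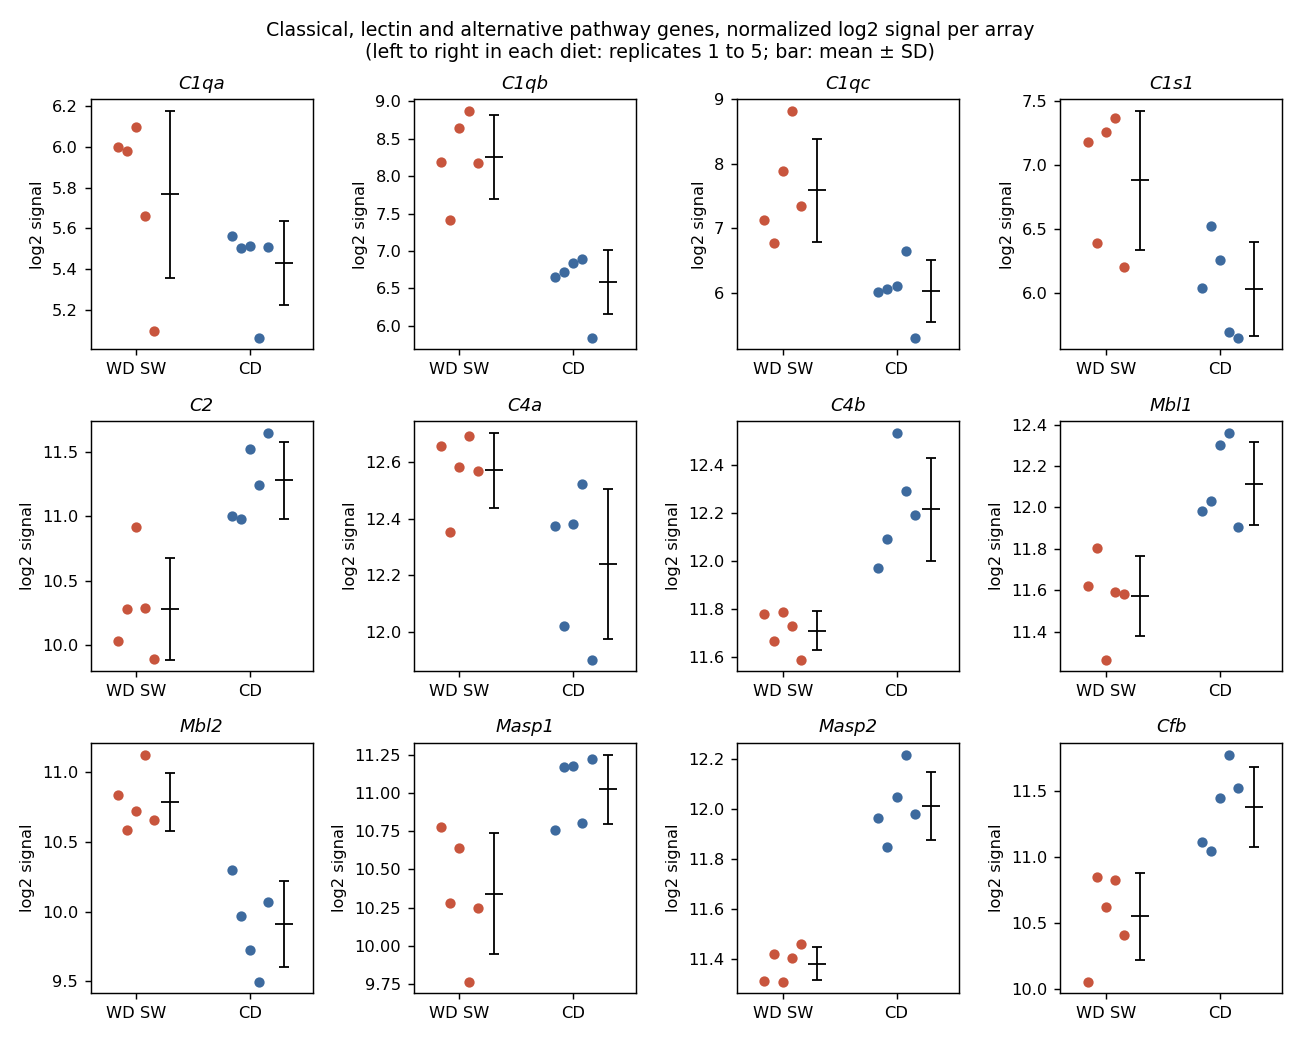
Normalized log2 signal on each array of 12 genes of the classical, lectin and alternative arms, brightest probe (points from left to right are replicates 1 to 5; bars are mean ± SD, n = 5 per diet; each panel has its own axis). WD SW arrays lie above CD arrays in C1qb, C1qc and Mbl2 and below them in C2, C4b, Mbl1, Masp2 and Cfb.

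**Figure D4:**
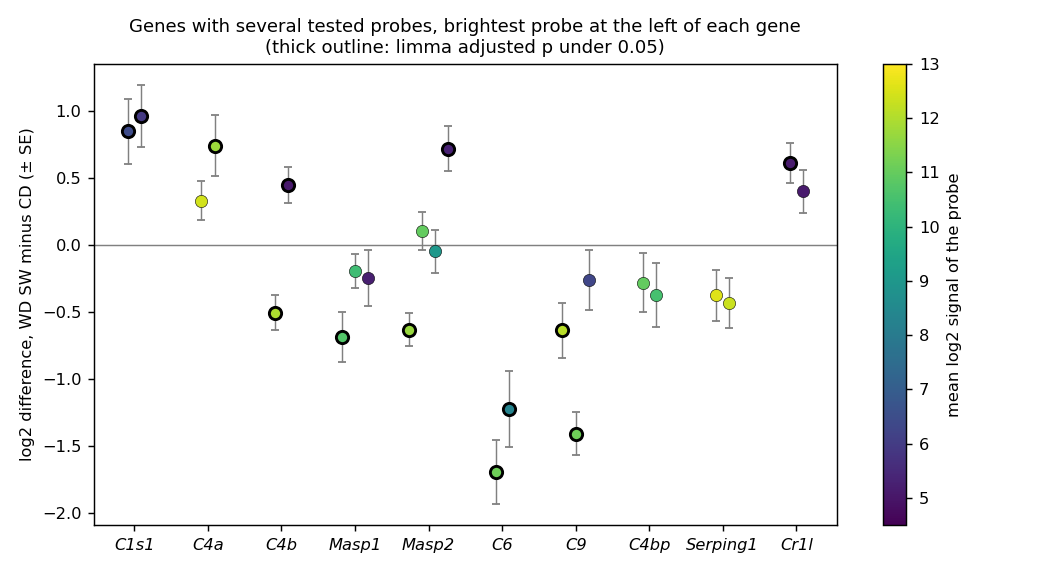
Log2 difference, WD SW minus CD, of every tested probe of the 10 complement genes that had several (bars are ± SE, n = 5 arrays per diet; colour is the mean log2 signal of the probe; thick outlines have a limma adjusted p under 0.05). The probes of C4b and of Masp2 were called in opposite directions, and those of C6 and C9 lay on the same side of 0.

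Over the 42 tested probes of complement genes, 16 were lower and 10 were higher, with 31.2% of all 17368 tested probes called in either direction. Among the 10 genes that had more than 1 tested probe, opposite calls were found in 2 (*C4b* and *Masp2*), and in both the brighter probe was lower and the probe called higher was near background. In the annotation the *C4b* probes share 1 transcript record. Of the *Masp2* probes, the brightest and only lower one is assigned to 1 record and the remaining 3 to another, so the lower *Masp2* value rests on a single record. Which splice form each probe reads was not examined.

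In the alternative arm, *Cfb*, the gene of factor B, which forms the alternative C3 convertase, had signals of 10.06, 10.85, 10.62, 10.83 and 10.41 in WD SW livers, against 11.12, 11.04, 11.45, 11.78 and 11.52 in CD livers. The diets did not overlap, and *Cfb* was 1.77-fold lower (-0.83 ± 0.18, limma adjusted p = 0.0037). *Cfb* and *C2*, which are related proteases of the C3 convertases, are neighbours on chromosome 17 with 0 protein coding genes between them, and both were lower. *Cfp*, the gene of properdin, which stabilises that convertase and is made by leukocytes, was at 9.91 to 11.07 in WD SW livers and 9.47 to 10.36 in CD livers and was not called (0.54 ± 0.21, limma adjusted p = 0.0675).

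The soluble regulators were lower or not called. *Cfi*, the gene of factor I, which cleaves C3b and C4b, read 12.52, 12.41, 12.99, 12.46 and 12.38 in WD SW livers, against 12.79, 13.08, 13.27, 13.28 and 13.37 in CD livers. WD SW replicate 3 alone reached the CD range (-0.61 ± 0.16, limma adjusted p = 0.00936). *Vtn*, the gene of vitronectin, which keeps the nascent terminal complex in solution, read 12.85, 12.49, 12.95, 12.76 and 12.68 in WD SW livers, against 13.49, 12.92, 13.22, 13.65 and 13.31 in CD livers. The ranges met at WD SW replicate 3 and CD replicate 2 (-0.57 ± 0.15, limma adjusted p = 0.0115).

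*C4bp*, the C4b-binding cofactor of factor I, was at 10.54 to 11.10 in WD SW livers and 10.47 to 11.66 in CD livers (-0.28 ± 0.22, limma adjusted p = 0.354). *Serping1*, the gene of the C1 inhibitor, was at 12.14 to 12.64 in WD SW livers and 12.35 to 13.27 in CD livers (-0.38 ± 0.19, adjusted p = 0.145). Neither was called on either of its 2 tested probes. In both, CD replicates 3 and 4, the arrays with the number 13 in their titles, were the highest CD arrays. These 2 arrays were also high in acute phase genes, where 14 of 19 tested genes were over 1 log2 unit above the mean of the other 3 CD arrays (median 1.64). The complement genes moved less there: the same difference had a median of 0.32 and exceeded 1 in 0 of 28 genes, against -0.004 over all genes, of which 1.36% exceeded 1. Between diets, 7 of the 19 tested acute phase genes were lower and 1 was higher (median -0.73), against 15.4% and 14.5% of all genes. Without CD replicates 3 and 4, 10 complement genes were lower and 8 higher, and 24.5% of all genes were called in either direction. *C1s1*, *C4b*, *Mbl1*, *C9* and *Cfi* then lost their calls, and *C4a*, *Fcna* and *Cfp* gained one.

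The membrane regulators were dim except *Cd59a*. Both genes called here were above background on all WD SW arrays and on few CD arrays, so their higher calls follow in part from the filter. *Cr1l* (Crry), which shields mouse cells from C3b and C4b, had signals of 5.56, 5.24, 5.41, 5.46 and 5.41 in WD SW livers, against 5.23, 4.49, 4.91, 4.66 and 4.73 in CD livers. It was above background on all 5 WD SW arrays and on 1 CD array, CD replicate 1, which nearly met the lowest WD SW array (0.61 ± 0.15, limma adjusted p = 0.0065). The second tested probe of *Cr1l* was not called (0.40 ± 0.16, limma adjusted p = 0.0721), and on it the diets overlapped. *Cd55*, which speeds the decay of C3 convertases, read 5.97, 5.78, 5.82, 5.69 and 5.62 in WD SW livers, against 4.87, 4.83, 5.49, 5.96 and 4.69 in CD livers. CD replicate 4 lay among the WD SW arrays, and the gene was above background on 2 CD arrays (0.61 ± 0.21, limma adjusted p = 0.0418). The *Cd55* call was lost in 15 of 25 alternative settings: without any single WD SW array, without CD replicate 1, 2 or 5, with no background correction or a larger offset, with median scaling, with no filter, with the title number as a block, with brightness as a covariate and in the authors' normalized values. *Cd59a*, the inhibitor of C9 assembly, was at 11.17 to 11.75 in WD SW livers and 10.80 to 11.44 in CD livers and was not called (0.35 ± 0.16, adjusted p = 0.106).

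The anaphylatoxin receptors are carried mainly by myeloid cells and were at or near background. *C5ar1*, the C5a receptor, read 4.70, 4.77, 4.58, 4.54 and 4.81 in WD SW livers, against 5.06, 5.28, 5.20, 5.68 and 5.24 in CD livers. It was not well above background on any WD SW array and was above it on all 5 CD arrays, giving at least 1.22-fold lower in WD SW livers (limma adjusted p = 0.00422). Having passed the filter through CD alone, it had to differ. *C3ar1*, the C3a receptor, was above background on 1 array of each diet and was not tested, with unnormalized signals of 81.2 to 92.3 in WD SW livers and 81.2 to 90.5 in CD livers. Of 4 tested neutrophil markers 0 were called, where 29.9% of all genes were called. The summed level of that list was 7.16 to 7.84 on WD SW arrays and 7.30 to 9.27 on CD arrays. The part of myeloid cells in the *C5ar1* value was not tested.

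The rest of the pathway was read from a list of 28 further complement genes, of which 24 had a probe and 15 were tested. Of these 5 were higher and 2 lower (median 0.27), against 14.5% higher, 15.4% lower and a median of -0.05 over all genes tested. *Susd4*, a membrane protein that inhibits C3 convertase formation, was lower, at 5.38 to 6.21 in WD SW livers and 7.08 to 8.08 in CD livers (-1.87 ± 0.21, limma adjusted p = 2.9e-05). *C1qbp*, a mainly mitochondrial protein that can bind C1q, was higher, at 7.51 to 8.00 in WD SW livers and 5.81 to 6.85 in CD livers (1.44 ± 0.21, adjusted p = 0.000205). *Colec11*, the gene of collectin-11 of the lectin arm (1.11 ± 0.17), and *Calr*, the chaperone that is also a C1q receptor (1.11 ± 0.28), were higher as well. Lower values were thus not shared by all of the pathway. Hepatocyte markers, which check the labelled tissue, were tested in 13 of 13 cases, with 3 higher and 5 lower and summed levels of 17.24 to 17.37 in WD SW livers and 16.84 to 17.16 in CD livers. The sum was higher on every WD SW array than on every CD array, although *Alb*, a hepatocyte product that defines the type, was lower (-1.93 ± 0.22). The only *Alb* probe was dim, with means of 7.06 in WD SW livers and 8.99 in CD livers, beside 14.82 and 14.60 for *Apoa1*. The other markers called lower were *Serpina1a* (-1.10 ± 0.14), *Pck1* (-1.34 ± 0.37), *Hnf4a* (-0.54 ± 0.18) and *Tat* (-0.51 ± 0.13). *Serpina1a* was bright, and on both of its probes the diets did not overlap (dimmer probe -1.30 ± 0.18). The markers called higher were *Apob* (1.49 ± 0.20), *Apoa2* and *Trf*. The sum is mostly the signal of *Apoa1*, *Apoa2*, *Ttr*, *Trf* and *Cyp2e1*. Of these *Apoa2* (1.12 ± 0.24) and *Trf* (1.46 ± 0.23) were called, both higher, and the others were not called.

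With log2 brightness as a covariate 18 of the 20 calls were lost, and 4.21% of all genes were called in place of 29.9%. *C8b* remained lower (-2.51 ± 0.36, limma adjusted p = 0.00277) and *C1qb* higher (1.74 ± 0.44, adjusted p = 0.0383). *C6* then had -1.39 ± 0.39 (adjusted p = 0.0598), *C8a* -0.96 ± 0.29 (adjusted p = 0.0709), *Hc* -0.70 ± 0.23 (adjusted p = 0.0895) and *C1qc* 1.83 ± 0.55 (adjusted p = 0.072). With CD replicate 1 as the only control, whose spread is taken to be that of the WD SW arrays, *C8b*, *C8a*, *C1qb* and *Cd55* were called. *Cfi* shrank to -0.19 with the covariate and -0.23 against CD replicate 1. Other genes that lost the call to the covariate and shrank by over 1.5 times were *C2* (-0.63, adjusted p = 0.268), *Cfb* (-0.40, adjusted p = 0.447), *Mbl2* (0.46, adjusted p = 0.298), *C4b* (-0.26, adjusted p = 0.528), *Cr1l* (0.27, adjusted p = 0.533) and *C5ar1* (-0.36, adjusted p = 0.383). The values of *Masp1* (-0.56), *Masp2* (-0.52), *Mbl1* (-0.42), *C9* (-0.52), *Vtn* (-0.55) and *C1s1* (0.69) moved less, with adjusted p from 0.146 to 0.43, and *Cd55* grew to 1.04 (adjusted p = 0.0877). Among genes that were not called in the first place, *C4bp* (0.21) and *Serping1* (0.18) turned positive with the covariate. All 20 called genes kept their direction in both of these settings.

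**Figure D5:**
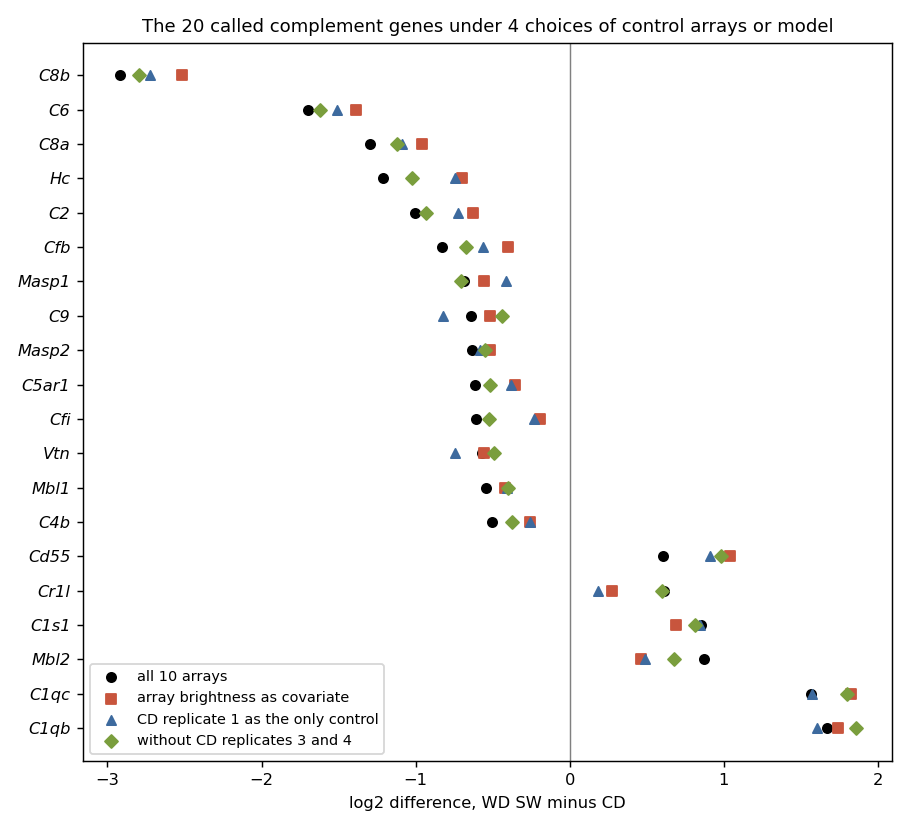
Log2 difference, WD SW minus CD, of the 20 called complement genes with all 10 arrays (circles), with array brightness as a covariate (squares), with CD replicate 1 as the only control (triangles) and without CD replicates 3 and 4 (diamonds). No gene changes sign among these 4 settings, and Cfi lies at -0.19 with the covariate, against -0.61 without it.

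The median SD between arrays of a diet over the 28 genes was 0.239 in WD SW livers and 0.298 in CD livers, and over all genes it was 0.195 in WD SW livers and 0.287 in CD livers. The CD arrays were the more variable ones in 16 of the 28 complement genes (57.1%) and in 7508 of all 10187 genes (73.7%).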

How the data were processed

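Liver RNA of 10 samples (5 WD SW, 5 CD, by the diet in the labels) was profiled on Illumina mouse bead arrays. The authors deposited the unnormalized fluorescence intensity of each probe, used here, and their own normalized intensity, used as an alternative. Scanner, software and the authors' normalization method are not given in the sources used here. Probe intensities were background corrected (normexp, offset 16, fitted to all probes), quantile normalized and log2 transformed with limma 3.58.1 in R 4.3.3. Quantile normalization hides a shift shared by most genes. A probe was detected where it exceeded the array's background, the mode of the log2 signals (bandwidth 0.02) with the SD of the signals below it, at a one-sided normal p of 0.05, and probes detected on at least 5 of 10 arrays were tested. This replaced the planned detection p-values. Detected probes made up 41.6% to 45.8% on WD SW arrays and 33.7% to 41.2% on CD arrays, and the number of arrays limits the precision.

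WD SW minus CD was fitted with lmFit and eBayes on 17368 probes, with Benjamini-Hochberg adjustment over them, and the probe with the highest mean log2 signal over 10 arrays stood for its gene (10187 genes). The fit was tested on simulated data with independent normal values, no brightness difference between diets and no grouping by title number. That run therefore cannot speak to the confounding of brightness with diet. Of 45281 probes, 34885 had 1 gene symbol in the platform annotation, 18 several and 10378 none, and 34807 matched the RefSeq gene table of GRCm38.p6. Where a gene was not above background on any array of 1 diet, the fold is a lower limit, computed by setting the bright diet's mean over the mean of the dim one after raising each dim array to its lowest detected signal where the probe was below it. Values per array are given for up to 4 called genes per arm with the largest change and for genes with probes called in opposite directions. The complement genes, lists and most tests were chosen with earlier results of these data known. A planned comparison of protein sequences was not made. Alternatives covered background correction, scaling, the authors' values, the filter, the probe, the variance model, array weights, brightness, the title number and each array left out. Replicates were numbered in order of listing, the number only names an array, and the highest correlation between 2 arrays of a diet was 0.988.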

Additional observations from a re-analysis of the deposited data

Results flagged for a closer look

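Dixon's criterion was applied in 56 groups of 5 arrays (28 tested complement genes in each diet). The highest and the lowest array were compared with the nearest of the others, and 4 values stood apart. Chance alone marks about 1 in 20 such groups. In WD SW livers, *C8a* on replicate 3 was 10.80, above the next array at 10.15 (gap over range 0.811), and *Cfi* on the same array was 12.99, above the next at 12.52 (0.765). In CD livers, *C1qb* on replicate 5 was 5.84, below the nearest array at 6.65 (0.775), and *C1qa* on replicate 4 was 5.06, below the nearest at 5.50 (0.881). The differences between diets without each of these arrays kept their direction and their side of the threshold in all 4 genes.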

How the results depend on the processing

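The main counts were 14 complement genes lower, 6 higher and 5 terminal genes lower. Leaving out each array in turn gave 13 to 14 lower, 5 to 8 higher and 4 to 5 terminal genes lower. In these fits 23.5% to 33.6% of all genes were called in either direction. With array brightness as a covariate the counts were 1 lower, 1 higher and 1 terminal, where 429 of 10187 genes were called in place of 3043. Against CD replicate 1 alone they were 2 lower, 2 higher and 2 terminal (853 genes called), with fewer samples. Median scaling over probes detected on all 10 arrays shifted the median of all genes to -0.32 (971 genes higher, 3982 lower) and gave 16 complement genes lower and 5 higher. Median scaling over all probes, chosen after seeing the data, shifted it to 0.48 (4894 higher, 151 lower) and gave 5 lower and 11 higher. *C2*, *C4b*, *Masp1*, *Masp2*, *Mbl1*, *Cfb*, *C9*, *Cfi* and *Vtn* then lost their lower calls. The sign of 2 called genes turned, both without a call: *Cr1l* at -0.059 with median scaling and *Masp2* at 0.037 with its probes averaged, which pools its differing probes. Only *C8b* and *C1qb* of the 20 called genes kept their call in every alternative. The cause of these shifts was not tested. No paired analysis was possible because the replicate numbers were given in order of listing and pair no samples. With the number in the titles as a random block (correlation 0.207), 13 complement genes were lower and 5 higher, and 22.4% of all genes were called. Signals near background limit *C1qa*, *Cd55*, *Cr1l*, *C5ar1* and the dim probes of *C4b* and *Masp2*.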
